A study of Mus musculus with 18 samples.

Results

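The G1 cyclins, cyclin-dependent kinases (CDKs) and CDK inhibitors described here are 10 mouse genes chosen by name and matched by Entrez gene number. They are the D-type cyclin genes Ccnd1, Ccnd2 and Ccnd3, the E-type cyclin genes Ccne1 and Ccne2, the kinase genes Cdk4 and Cdk6, and the inhibitor genes Cdkn1a (p21), Cdkn1b (p27) and Cdkn2c (p18). All 10 were among the 28096 genes of the count tables, and all 10 were among the 14161 genes that passed the expression filter and were tested. The measurements were 18 RNASeq libraries of polyA RNA from B cells isolated from the spleen of C57BL/6 N mice at least 8 weeks old. The mice were WT or Ubqln1-/-, a knockout of every cell type, since exon 2 of the gene for Ubiquilin1 was deleted in C57BL/6 embryonic stem cells. Ubiquilin1 is an adaptor that binds membrane proteins in the cytosol. Cells of each genotype were left without stimulation (resting), or treated for 4 hr with anti-IgM F(ab)2 at 10 μg/mL, which crosslinks the B cell receptor (BCR), or with E. coli K12 LPS at 20 μg/mL, which signals through TLR4. Each of these 6 groups had 3 libraries, and the wells of a sample were pooled before RNA was purified.

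A resting B cell sits outside the cycle, and its mRNAs for G1 regulators are rebuilt before it makes DNA. D-type cyclins pair with CDK4 or CDK6 and begin to phosphorylate the retinoblastoma protein RB, which frees E2F transcription factors, and cyclin E with CDK2 then completes the step into S phase. p21 and p27 bind whole cyclin-CDK complexes, whereas p18 belongs to the INK4 proteins, which bind CDK4 and CDK6 alone. Cyclin D2 is known as the D-type cyclin that mature B cells make early after BCR or TLR signals, and p27 as an inhibitor that quiescent lymphocytes hold at a high level. All values here are of mRNA, and much of the control of p27 and cyclin E is known to act on the proteins.

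The libraries held between 15368941 and 41072854 counted reads, and every WT LPS library was larger than every Ubqln1-/- LPS library. Ubqln1 itself, in CPM (reads per 1000000 of the TMM-scaled library size), ranged from 230 to 339 in the 9 WT libraries and from 91.4 to 128 in the 9 Ubqln1-/- libraries, in which the exons outside the deletion were still counted. The B cell markers in the tables, 8 of the 10 listed, summed to between 7278 and 9195 CPM in resting and LPS libraries and to between 2857 and 3530 CPM with anti-IgM. Summed T cell, NK and neutrophil markers stayed at or under 3.04 CPM in every library and erythroid markers at or under 4.29 CPM. Monocyte and macrophage markers, 6 genes, summed to 21.9 to 50.6 CPM in resting libraries and to 11.6 to 20.4 CPM with either stimulus, and 4 dendritic cell markers ran from 13 to 21.8 CPM at rest, 21.6 to 30.8 CPM with anti-IgM and 41 to 70.6 CPM with LPS. The 4 plasma cell markers lay at 219 to 585 CPM in WT and 185 to 312 CPM in Ubqln1-/- cells, with every WT library of a condition above every Ubqln1-/- library of that condition. The part of these markers in the results below was not tested. In bulk libraries, fewer cells that express a gene and less RNA per cell cannot be told apart.

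Levels are given as RPKM, which is CPM divided by the counted exon width in kilobases, so that they can be compared between genes. In resting WT cells, Cdk4 at 91.2 ± 12.3 RPKM and Cdkn1b at 77.4 ± 3.65 RPKM (SD, n = 3 throughout) were the most abundant of the 10 mRNAs, and their libraries overlapped. Ccnd3 followed at 28.9 ± 1.82 RPKM and Ccnd2 at 12.1 ± 2.58 RPKM, each apart from its neighbours. Ccne1, Cdkn2c, Cdkn1a and Cdk6 lay between 3.98 and 7.25 RPKM on average and each overlapped the next. Ccne2 at 2.63 ± 0.171 RPKM and Ccnd1 at 0.668 ± 0.145 RPKM were lowest. With anti-IgM, Cdk4 stood alone at the top at 246 ± 19.9 RPKM and Cdkn1b at 32.5 ± 3.59 RPKM overlapped Ccnd2 at 27.7 ± 4.42 RPKM. With LPS, Ccnd2 at 189 ± 47.8 RPKM and Cdk4 at 165 ± 27.6 RPKM shared the top of the order, and their libraries overlapped. Ccnd1 was last in all 6 groups.

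**Figure D1:**
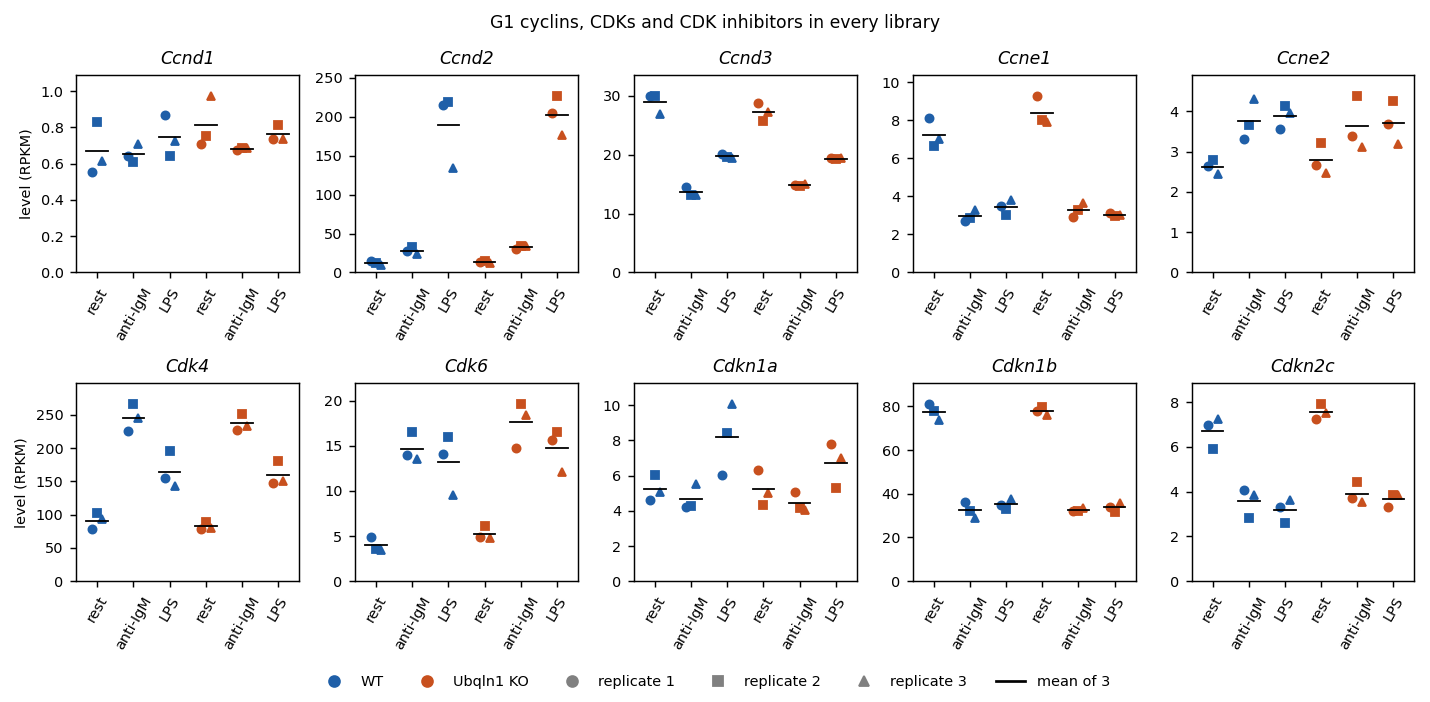
Level of each of the 10 mRNAs in every library, in RPKM on a linear axis that starts at 0 and differs between panels. Points are libraries, colours are genotypes, shapes are replicate numbers and lines are means of 3; the LPS libraries of Ccnd2 sit between 134 and 227 RPKM, far above the rest, while Cdkn1b falls from between 73.6 and 80.8 RPKM at rest to between 29.1 and 37.8 RPKM with either stimulus.

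Comparison of each stimulus with resting cells asked how the G1 machinery responded within 4 hr. By edgeR's quasi-likelihood test with Benjamini-Hochberg adjustment over all 14161 genes, 4 members were higher and 4 lower with anti-IgM in WT cells at an adjusted p under 0.05, where 64.6% of all genes passed, 32.4% higher and 32.2% lower. In Ubqln1-/- cells the counts were again 4 and 4, beside 65.3% of all genes (32.9% and 32.4%). With LPS, 5 members were higher and 4 lower in WT cells, beside 61.2% of all genes (31.2% higher and 30.1% lower), and 4 and 4 in Ubqln1-/- cells, beside 60.7% (30.6% and 30.2%). With shares this large, the sizes of the changes are given beside the counts. The median absolute log2 fold change of the 10 genes was 1.14 in WT and 1.1 in Ubqln1-/- cells with anti-IgM, beside 0.474 and 0.46 over all genes tested, and 0.964 and 0.991 with LPS, beside 0.418 and 0.426. The 10 genes were chosen with earlier results of these data known, so these medians are a description only. The 4 members that rose in every one of these comparisons were Ccnd2, Ccne2, Cdk4 and Cdk6, and the 4 that fell in every one were Ccnd3, Ccne1, Cdkn1b and Cdkn2c. At the study's own thresholds, a log2 fold change beyond 2 with an adjusted p under 0.001, Ccnd2 with LPS was the only member, beside 1.8% of all genes in WT and 1.74% in Ubqln1-/- cells. No member reached them with anti-IgM, where 3.76% and 3.64% of all genes did.

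**Figure D2:**
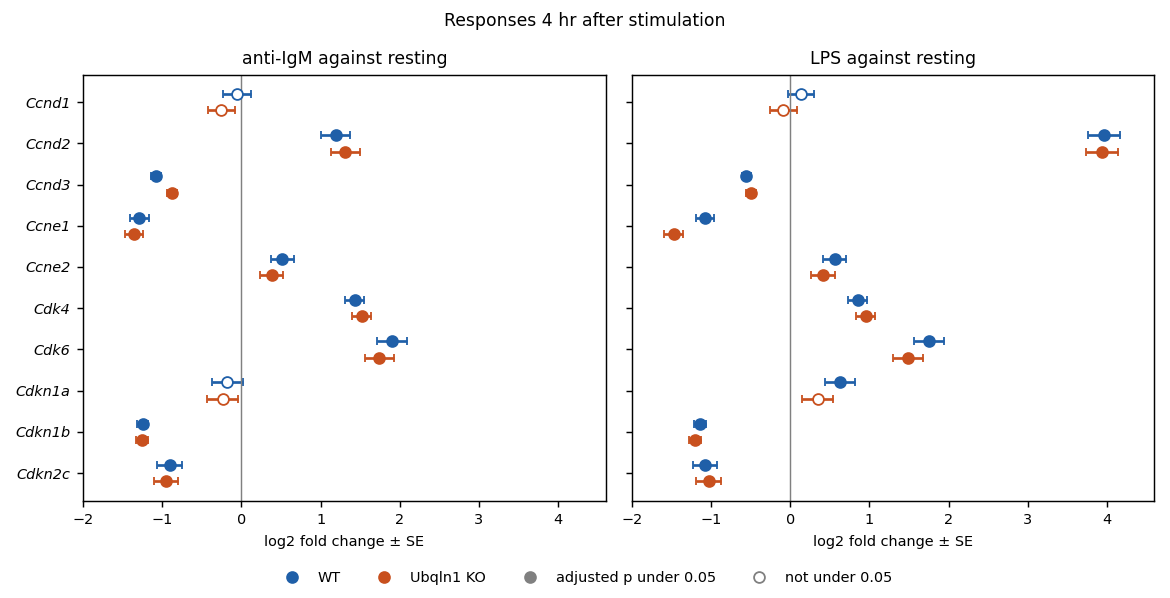
Log2 fold change of each member against resting cells (points) with its standard error (bars), for anti-IgM on the left and LPS on the right, in WT and Ubqln1-/- cells (labelled Ubqln1 KO). Filled points have an adjusted p under 0.05; Ccnd2 is the gene at 3.96 and 3.94 with LPS, and the open points belong to Ccnd1 and Cdkn1a.

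Ccnd2, on chr6:127125162-127152188 (GRCm38.p6, minus strand), encodes cyclin D2. Its level was 14.5, 12.5 and 9.37 RPKM in the WT resting libraries, 27.6, 32.1 and 23.3 RPKM with anti-IgM, and 215, 218 and 134 RPKM with LPS, in the order of replicates 1, 2 and 3. The Ubqln1-/- libraries were at 13.0, 15.2 and 11.5 RPKM at rest, 30.7, 34.5 and 33.4 RPKM with anti-IgM, and 205, 227 and 177 RPKM with LPS. The 3 conditions did not overlap in either genotype, and replicate 3 was the lowest of its group at rest and with LPS in both. Against resting cells Ccnd2 rose 2.29-fold with anti-IgM in WT cells (95% interval 1.74 to 3.00, adjusted p = 2.62e-05) and 2.48-fold in Ubqln1-/- cells (1.89 to 3.25, adjusted p = 9.3e-06). With LPS it rose 15.6-fold (11.6 to 21.0, adjusted p = 6.09e-10) and 15.3-fold (11.4 to 20.6, adjusted p = 6.33e-10). The size of the LPS response was at or above that of 99.9% of genes tested in each genotype, while that of the anti-IgM response was at or above that of 83.8% in WT and 87.3% in Ubqln1-/- cells. Taken within replicate numbers, the log2 ratio of LPS to resting ran from 3.84 to 4.12 in WT and from 3.90 to 3.98 in Ubqln1-/- cells, with replicate 3 at 3.84 and 3.94. Exons of Ccnd2 share 368 of 9409 annotated bases with 9330179D12Rik and 372 with Gm43126, both on the other strand, where reads cannot be told apart because the library kit does not keep strand. 9330179D12Rik was counted at no more than 1.65 CPM, with log2 fold changes of -0.09 and -0.36 with anti-IgM and 2.95 and 3.08 with LPS, and no value is given for Gm43126.

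Ccnd3, on chr17:47505051-47599689 (plus strand), encodes cyclin D3 and moved the other way. It stood at 30.0, 29.9 and 26.8 RPKM in WT resting libraries, 14.6, 13.2 and 13.2 RPKM with anti-IgM, and 20.1, 19.6 and 19.4 RPKM with LPS. Levels in Ubqln1-/- cells were 28.8, 25.8 and 27.3 RPKM at rest, 14.9, 14.6 and 15.0 RPKM with anti-IgM, and 19.4, 19.2 and 19.4 RPKM with LPS. Resting libraries were highest, LPS libraries lay between and anti-IgM libraries were lowest, without overlap. Ccnd3 fell 2.11-fold with anti-IgM in WT cells (log2 fold change -1.08 ± 0.06 SE, adjusted p = 4.67e-10) and 1.84-fold in Ubqln1-/- cells (-0.88 ± 0.06, adjusted p = 3.49e-09). With LPS it fell 1.47-fold (-0.55 ± 0.06, adjusted p = 5.6e-07) and 1.41-fold (-0.50 ± 0.06, adjusted p = 2.17e-06). Exons of Ccnd3 share 361 of 8775 annotated bases with Bysl, a ribosome biogenesis gene on the other strand, and reads there cannot be told apart either. Bysl rose in the same comparisons, with log2 fold changes from 1.46 to 1.70.

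Ccnd1, on chr7:144929931-144939831 (minus strand), encodes cyclin D1, the D-type cyclin of many adherent cells. It was measured from 33 to 102 reads per library and ranged from 0.556 to 0.975 RPKM over all 18 libraries. It was not called in any comparison. Its log2 fold changes against resting cells were -0.06 ± 0.18 and -0.25 ± 0.17 with anti-IgM and 0.14 ± 0.17 and -0.09 ± 0.17 with LPS in WT and Ubqln1-/- cells. In Ubqln1-/- cells the anti-IgM libraries, at 0.675 to 0.685 RPKM, lay under all resting libraries, at 0.711 to 0.975 RPKM, with an adjusted p of 0.197. Ccnd1 exons share 1100 of 4709 annotated bases with LTO1 on the other strand, which was expressed at 15.3 to 23.2 CPM, so that some of these few reads may belong to LTO1, which was not tested.

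The make-up of the D-type cyclin mRNA differed by condition. Ccnd2 was 32.1%, 28.9% and 25.5% of the summed RPKM of the 3 D cyclin genes in WT resting libraries, 64.4%, 69.9% and 62.6% with anti-IgM, and 91.1%, 91.5% and 86.9% with LPS. The shares in Ubqln1-/- cells were 30.6%, 36.4% and 29.0% at rest, 66.3%, 69.3% and 68.0% with anti-IgM, and 91.0%, 91.9% and 89.8% with LPS. The mean share thus went from 28.8% ± 3.35 to 65.6% ± 3.8 and 89.8% ± 2.54 in WT and from 32% ± 3.89 to 67.9% ± 1.52 and 90.9% ± 1.06 in Ubqln1-/- cells (SD, n = 3). The size of these shares, and of the sums below, depends on the counted widths, 5772 bases for Ccnd2 and 2261 for Ccnd3. In reads, Ccnd2 against Ccnd3 was 1307 against 1061, 1855 against 1738 and 1086 against 1218 in WT resting libraries. For Ubqln1-/- resting libraries the reads were 1584 against 1373, 1959 against 1302 and 1404 against 1299. The 6 comparisons between conditions within a genotype gave complete separation and an exact permutation p of 0.1 each (two-sided), 0.15 after adjustment over 9 comparisons, and 0.1 is the smallest p that 3 against 3 libraries allow. The sum of the 3 mRNAs was 41.7 ± 4.33 RPKM at rest and 42.0 ± 4.43 RPKM with anti-IgM in WT cells, against 209 ± 48.1 RPKM with LPS. For Ubqln1-/- cells the sum was 41.3 ± 1.39, 48.4 ± 1.89 and 223 ± 25.1 RPKM. With anti-IgM in WT cells, then, the rise of Ccnd2 and the fall of Ccnd3 left a sum close to that at rest, and with LPS the sum was carried by Ccnd2. The difference of the share between genotypes was 3.17, 2.23 and 1.05 percentage points at rest, with anti-IgM and with LPS, with exact permutation p of 0.4, 0.4 and 0.7.

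**Figure D3:**
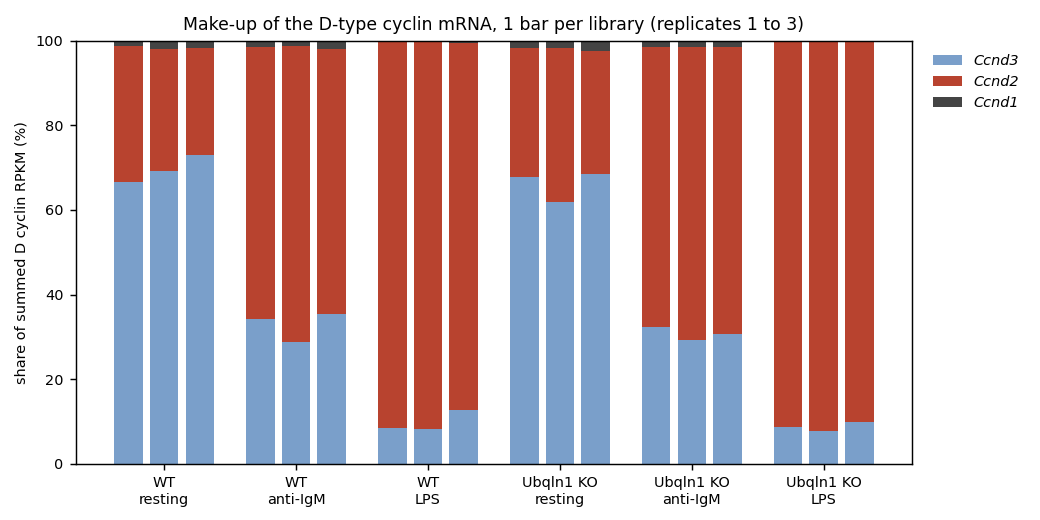
Share of Ccnd1, Ccnd2 and Ccnd3 in their summed RPKM, in percent, with 1 bar for each library in the order of replicates within the 6 groups. The red Ccnd2 segment is between 25.5% and 36.4% in resting libraries, between 62.6% and 69.9% with anti-IgM and between 86.9% and 91.9% with LPS.

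The E-type cyclins split. Ccne1, on chr7:38097984-38107490 (minus strand), encodes cyclin E1, a partner of CDK2. It was 8.11, 6.65 and 7.003 RPKM in WT resting libraries, 2.73, 2.89 and 3.29 RPKM with anti-IgM, and 3.52, 3.00 and 3.79 RPKM with LPS. Ubqln1-/- cells had 9.30, 8.03 and 7.91 RPKM at rest, 2.89, 3.30 and 3.64 RPKM with anti-IgM, and 3.13, 3.00 and 3.00 RPKM with LPS. Every stimulated library lay under every resting library. Ccne1 fell 2.44-fold with anti-IgM in WT cells (log2 fold change -1.29 ± 0.12, adjusted p = 8.63e-08) and 2.57-fold in Ubqln1-/- cells (-1.36 ± 0.12, adjusted p = 3.67e-08). With LPS it fell 2.11-fold (-1.08 ± 0.12, adjusted p = 7.22e-07) and 2.77-fold (-1.47 ± 0.12, adjusted p = 4.17e-08).

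Ccne2, on chr4:11190433-11204779 (plus strand), encodes cyclin E2, the close relative of cyclin E1. It was 2.64, 2.79 and 2.45 RPKM at rest, 3.32, 3.67 and 4.31 RPKM with anti-IgM and 3.55, 4.13 and 3.95 RPKM with LPS in WT cells, where neither stimulus overlapped resting libraries. Without Ubqln1 the levels were 2.68, 3.23 and 2.48 RPKM at rest, 3.38, 4.39 and 3.12 RPKM with anti-IgM, and 3.69, 4.25 and 3.19 RPKM with LPS, where both stimuli overlapped resting libraries through replicate 2 at rest and replicate 3 with each stimulus. It rose 1.43-fold (1.15 to 1.78, adjusted p = 0.00554) and 1.30-fold (1.05 to 1.61, adjusted p = 0.0294) with anti-IgM, and 1.48-fold (1.19 to 1.83, adjusted p = 0.00308) and 1.33-fold (1.07 to 1.65, adjusted p = 0.0225) with LPS, in WT and Ubqln1-/- cells in that order. The calls in Ubqln1-/- cells were lost without resting replicate 1 or 3, or without replicate 2 of the stimulus, with adjusted p from 0.0735 to 0.183 for anti-IgM and from 0.0626 to 0.131 for LPS. Within replicate numbers, Ccne2 was higher with the stimulus in 12 of 12 pairs. These pairs use each resting library for both stimuli and come from 3 replicate numbers, so they are not 12 independent units. The share of all genes tested with such a pattern was not counted. Its exons share 609 of 3495 annotated bases with Ints8 on the other strand. Ints8 was expressed at 62.3 to 85.4 CPM, against 7.87 to 14.1 CPM for Ccne2. The log2 fold changes of Ints8 in these comparisons were between -0.02 and 0.19. Some Ccne2 reads may belong to Ints8, which was not tested and limits the order of E1 and E2 given next. As counted, E1 mRNA was above E2 mRNA in every resting library. Every E2 library was above every E1 library of the group in WT cells with anti-IgM and in Ubqln1-/- cells with LPS. Libraries of the 2 genes overlapped in the other 2 stimulated groups.

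Cdk4 and Cdk6 encode the kinases that D-type cyclins activate, and both mRNAs rose with both stimuli. Cdk4, on chr10:127063535-127067288 (plus strand), was 78.1, 103 and 92.9 RPKM in WT resting libraries, 226, 266 and 246 RPKM with anti-IgM, and 155, 196 and 143 RPKM with LPS. The knockout libraries gave 78.1, 89.5 and 80.2 RPKM at rest, 227, 252 and 234 RPKM with anti-IgM, and 147, 181 and 151 RPKM with LPS. Anti-IgM libraries were highest, LPS libraries were intermediate and resting libraries were lowest, without overlap in either genotype. Cdk4 rose 2.69-fold with anti-IgM in WT cells (2.26 to 3.21, adjusted p = 2.74e-08) and 2.88-fold in Ubqln1-/- cells (2.41 to 3.43, adjusted p = 1.49e-08). With LPS it rose 1.80-fold (1.52 to 2.15, adjusted p = 1.09e-05) and 1.93-fold (1.62 to 2.30, adjusted p = 3.65e-06). Cdk4 exons share 641 of 3249 annotated bases with Tspan31 on the other strand, which was expressed at 39.2 to 61.9 CPM with log2 fold changes between -0.15 and 0.06 in these comparisons.

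Cdk6, on chr5:3341004-3531008 (plus strand), was 4.87, 3.60 and 3.47 RPKM in WT resting libraries, 13.9, 16.5 and 13.6 RPKM with anti-IgM, and 14.0, 16.03 and 9.58 RPKM with LPS. Its Ubqln1-/- levels were 4.89, 6.12 and 4.76 RPKM at rest, 14.8, 19.6 and 18.5 RPKM with anti-IgM, and 15.6, 16.6 and 12.1 RPKM with LPS. Stimulated and resting libraries did not overlap, while the anti-IgM and LPS libraries did. Cdk6 rose 3.73-fold with anti-IgM in WT cells (2.81 to 4.95, adjusted p = 2.29e-07) and 3.35-fold in Ubqln1-/- cells (2.55 to 4.39, adjusted p = 4.2e-07), the largest anti-IgM response among the 10 genes in each genotype. With LPS it rose 3.36-fold (2.54 to 4.45, adjusted p = 8.38e-07) and 2.81-fold (2.14 to 3.70, adjusted p = 3.75e-06), second to Ccnd2 among the members that rose. On the RPKM scale the kinase mRNAs still differed in level, since Cdk6 with a stimulus reached at most 19.6 RPKM, under the lowest resting Cdk4 library at 78.1 RPKM. Cdk6 exons share 368 of 13989 annotated bases with Gm17590 on the other strand, for which no value is given.

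Promoter sequences are shown for these kinase genes because their mRNAs rose together and because the promoter of Cdk4 holds a repeated motif. The 300 bases run from 250 before to 50 after the annotated start, 5′ to 3′ on the gene's strand (RefSeq, GRCm38.p6), and capitals mark CACGTG, the canonical E-box that MYC-MAX dimers among other factors can bind. The first is chr10:127063285-127063584 and the second chr5:3343643-3343942.
Cdk4: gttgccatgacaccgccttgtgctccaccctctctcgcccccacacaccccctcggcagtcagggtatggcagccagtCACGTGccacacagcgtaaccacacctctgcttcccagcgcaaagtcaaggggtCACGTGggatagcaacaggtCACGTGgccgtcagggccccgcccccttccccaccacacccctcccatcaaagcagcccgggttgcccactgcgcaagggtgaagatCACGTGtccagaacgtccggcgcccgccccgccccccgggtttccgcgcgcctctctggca
Cdk6: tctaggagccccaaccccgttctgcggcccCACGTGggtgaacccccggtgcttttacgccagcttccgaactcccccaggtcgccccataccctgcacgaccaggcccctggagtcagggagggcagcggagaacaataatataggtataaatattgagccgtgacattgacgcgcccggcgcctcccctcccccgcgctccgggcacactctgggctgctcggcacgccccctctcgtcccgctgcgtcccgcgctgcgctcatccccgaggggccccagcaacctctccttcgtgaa
The Cdk4 promoter holds CACGTG 4 times, beginning 172, 118, 98 and 11 bases before the start, and the Cdk6 promoter holds it once, 220 bases before the start. The motif reads the same on both strands. Of the 32851 mouse promoters in the same table, 7.15% hold at least 1 copy and 8 hold 4 or more. The table gives 10 promoters for 7 of the 10 genes and none for Ccnd1, Ccnd2 and Ccne2. Ccnd2 and Ccne2, which also rose, were thus not searched, and the matches cannot be set against the direction of response. Among the 8 promoters not shown, CACGTG occurs once, 34 bases after the start in 1 of the 2 promoters of Cdkn2c. It is not in those of Ccnd3, Ccne1, Cdkn1a and Cdkn1b. The E2F motif spellings TTTCCCGC, TTTGGCGC and TTTCGCGC, searched on both strands, are not in any of the 10 windows, where 1.07%, 0.514% and 0.323% of all promoters hold them. The forkhead motif GTAAACA is in 1 of them, a promoter of Ccnd3, beside 3.65% of all promoters. The GC-box spelling GGGGCGGGG, in 11.4% of all promoters, occurs 2 times each in the promoters of Cdk4 and Ccne1 and in 1 promoter of Ccnd3, and once each in the other promoter of Ccnd3 and 1 of Cdkn1a. None of these motifs contains another. No binding was measured, and a match describes the letters of the window.

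Of the inhibitors, Cdkn1b, on chr6:134920401-134925525 (plus strand), was the most abundant and fell with both stimuli. It was 80.8, 77.9 and 73.6 RPKM in WT resting libraries, 36.3, 32.2 and 29.1 RPKM with anti-IgM, and 35.0, 32.9 and 37.8 RPKM with LPS. Libraries of Ubqln1-/- cells gave 78.0, 79.9 and 76.2 RPKM at rest, 32.3, 32.2 and 33.3 RPKM with anti-IgM, and 34.0, 31.9 and 35.7 RPKM with LPS. Every stimulated library was far under every resting library. Cdkn1b fell 2.38-fold and 2.39-fold with anti-IgM (log2 fold changes -1.25 ± 0.07 and -1.26 ± 0.07, adjusted p = 7.95e-10 and 8.69e-10) in WT and Ubqln1-/- cells. With LPS it fell 2.20-fold and 2.30-fold (-1.14 ± 0.07 and -1.20 ± 0.07, adjusted p = 4.07e-09 and 2.62e-09).

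Cdkn2c, on chr4:109660876-109666756 (minus strand), encodes the INK4 inhibitor p18 and followed Cdkn1b at a lower level. It was 6.99, 5.88 and 7.25 RPKM in WT resting libraries, 4.08, 2.81 and 3.85 RPKM with anti-IgM, and 3.33, 2.60 and 3.63 RPKM with LPS. The Ubqln1-/- libraries were at 7.24, 7.89 and 7.51 RPKM at rest, 3.70, 4.42 and 3.55 RPKM with anti-IgM, and 3.33, 3.84 and 3.87 RPKM with LPS. Resting and stimulated libraries did not overlap. It fell 1.87-fold and 1.93-fold with anti-IgM (adjusted p = 7.66e-05 and 3.6e-05) and 2.11-fold and 2.04-fold with LPS (adjusted p = 1.44e-05 and 2.69e-05) in WT and Ubqln1-/- cells.

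Cdkn1a, on chr17:29090979-29100722 (plus strand), encodes p21, a target of p53 and of mitogenic signals. In WT cells it was 4.64, 6.04 and 5.06 RPKM at rest, 4.19, 4.30 and 5.53 RPKM with anti-IgM, and 6.06, 8.42 and 10.0 RPKM with LPS. Levels in Ubqln1-/- cells were 6.34, 4.35 and 5.04 RPKM at rest, 5.10, 4.17 and 4.03 RPKM with anti-IgM, and 7.77, 5.31 and 7.02 RPKM with LPS. The LPS libraries of WT cells lay just above the resting ones, and those of Ubqln1-/- cells overlapped them. Its log2 fold change with anti-IgM was -0.18 ± 0.20 and -0.24 ± 0.20, with adjusted p of 0.442 and 0.301. With LPS it rose 1.55-fold in WT cells (1.17 to 2.05, adjusted p = 0.00903), and without WT LPS replicate 3 the adjusted p was 0.054. In Ubqln1-/- cells the log2 fold change with LPS was 0.35 ± 0.20 (95% interval -0.07 to 0.76, adjusted p = 0.137). The difference between these LPS responses was -0.28 on the log2 scale (95% interval -0.86 to 0.30, adjusted p = 1 for the interaction). Cdkn1a exons share 273 of 3553 annotated bases with AC167363.2 on the other strand, for which no value is given.

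Comparison of LPS with anti-IgM asked which members separated the signals. In each genotype 3 members were higher with LPS, Ccnd2, Ccnd3 and Cdkn1a, and 1 was lower, Cdk4, at an adjusted p under 0.05, where 32.4% of all genes passed in WT cells (17.4% higher and 15% lower) and 31.3% in Ubqln1-/- cells (16.8% and 14.5%). The median absolute log2 difference of the members was 0.202 and 0.208, beside 0.205 and 0.203 over all genes tested. Ccnd2 was 6.83-fold higher with LPS in WT cells (5.16 to 9.03, adjusted p = 7.9e-09) and 6.17-fold higher in Ubqln1-/- cells (4.67 to 8.15, adjusted p = 1.48e-08), and was the only member past the study's thresholds, as were 2.51% and 2.24% of all genes. Ccnd3 was 1.44-fold and 1.30-fold higher with LPS (adjusted p = 2.38e-06 and 9.28e-05), having fallen less far from rest. Cdk4 was 1.49-fold lower with LPS in each genotype (adjusted p = 0.000961 and 0.00111). Cdkn1a was 1.75-fold and 1.5-fold higher with LPS (adjusted p = 0.00331 and 0.0307), and the second value did not pass with limma-voom (adjusted p = 0.0556) or without Ubqln1-/- anti-IgM replicate 2 or 3 or LPS replicate 1 or 3 (adjusted p from 0.0847 to 0.132). The other 6 were not called in either genotype. For Cdk6 the log2 difference was -0.15 (95% interval -0.52 to 0.22) in WT and -0.25 (-0.62 to 0.12) in Ubqln1-/- cells, for Cdkn1b 0.11 (-0.04 to 0.27) and 0.05 (-0.10 to 0.21), and for Ccne2 0.05 (-0.25 to 0.34) and 0.03 (-0.27 to 0.34). Cdkn1b in WT cells passed without anti-IgM replicate 1 (log2 difference 0.20, adjusted p = 0.0411). The anti-IgM and LPS responses share their resting libraries.

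Comparison of Ubqln1-/- with WT cells asked whether loss of Ubiquilin1 moved these mRNAs. None of the 10 was called at rest, with anti-IgM or with LPS by edgeR's quasi-likelihood test, by DESeq2 or by limma-voom, and none had an unadjusted p under 0.05, where 597, 728 and 557 of the 14161 genes did. Over all genes 0.0565%, 0.0989% and 0.0424% were called, which is 8, 14 and 6 genes, and with the replicate number as a block 49, 94 and 125 genes were called with no member among them. The intervals come from the fit without a replicate block and give what that fit could resolve with 3 libraries a group. For Cdkn1b the log2 difference was 0.01 (95% interval -0.14 to 0.16) at rest, 0.00334 (-0.15 to 0.16) with anti-IgM and -0.06 (-0.21 to 0.10) with LPS. For Ccnd3 it was -0.09 (-0.21 to 0.04), 0.12 (-0.01 to 0.24) and -0.03 (-0.15 to 0.10). For Cdk4 it was -0.14 (-0.40 to 0.11), -0.05 (-0.30 to 0.20) and -0.04 (-0.29 to 0.20). For Ccnd2 the interval was wider, with a log2 difference of 0.13 (-0.26 to 0.52), 0.25 (-0.13 to 0.63) and 0.10 (-0.27 to 0.48), so that a difference of up to 1.55-fold with anti-IgM was within the interval. With the replicate number as a block, the edgeR estimate for Ccnd2 with anti-IgM was 0.266 (adjusted p = 0.359). The largest estimate was that of Cdk6 at rest, 1.34-fold higher in Ubqln1-/- cells (0.996 to 1.79, unadjusted p = 0.0528, adjusted p = 1), where the libraries overlapped. Within replicate numbers Cdk6 was higher in Ubqln1-/- cells in 9 of 9 pairs, 3 in each condition, as were 376 of the 14161 genes (2.66%), while 280 genes (1.98%) were lower in 9 of 9. These pairs come from 3 replicate numbers whose libraries deviated together, so they are not 9 independent units. With the replicate number as a block the adjusted p of Cdk6 was 0.432 at rest, where the pairing by number was less clear. It was 0.447 with anti-IgM and 0.885 with LPS. The other 9 members were higher in Ubqln1-/- cells in 2 to 7 of the 9 pairs. Ccnd3 with anti-IgM was the only member and condition in which the libraries of the genotypes did not overlap, at 13.22 to 14.59 RPKM in WT and 14.63 to 15.0 RPKM in Ubqln1-/- cells (adjusted p = 0.997). Complete separation of 3 against 3 libraries has a two-sided exact permutation p of 0.1. The share of all genes tested that were apart in this way was not counted. In the 2 interaction tests, of genotype with anti-IgM and with LPS, edgeR, DESeq2 and limma-voom called 0 of 14161 genes, and 140 and 220 genes had an unadjusted p under 0.05. Among these were Ccnd3 for anti-IgM (log2 difference of responses 0.20, 95% interval 0.03 to 0.38, unadjusted p = 0.027) and Ccne1 for LPS (-0.39, -0.74 to -0.04, unadjusted p = 0.0323), each with an adjusted p of 1.

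**Figure D4:**
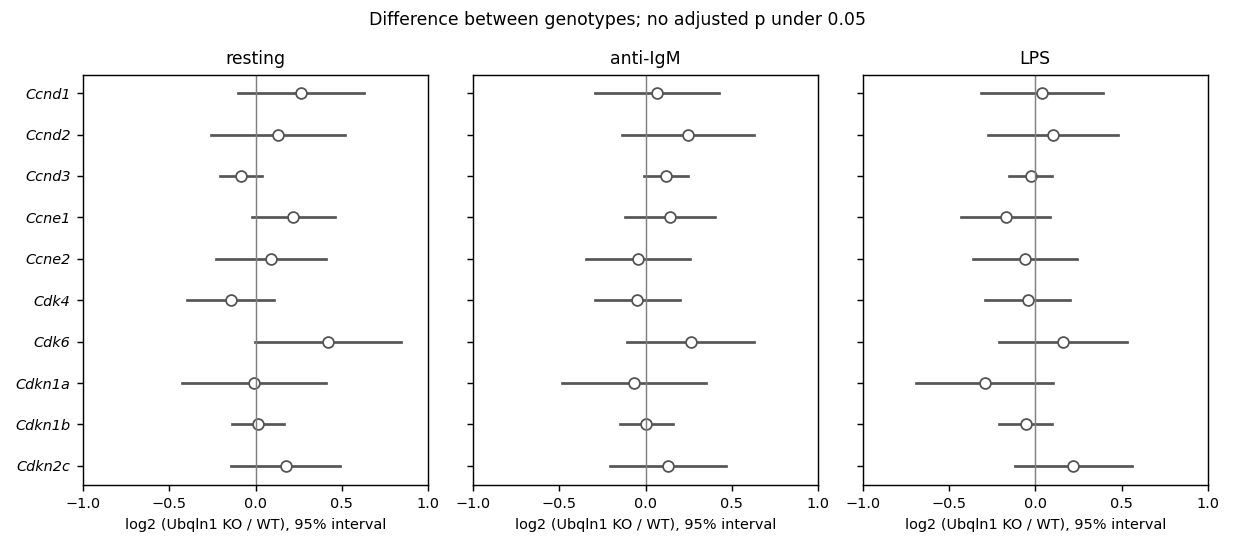
Log2 difference of each member between Ubqln1-/- (Ubqln1 KO) and WT cells at rest, with anti-IgM and with LPS, with its 95% interval as a line. All 30 intervals cross 0, and they are narrowest for Ccnd3 and Cdkn1b and wider for Ccnd2, Cdk6 and Cdkn1a.

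Other genes of the G1/S pathway place the members. Of a list of 30 partners and regulators, 29 were tested and Cdkn2d was too low. With anti-IgM 15 were higher and 7 lower in WT cells and 14 and 7 in Ubqln1-/- cells, and with LPS 13 and 7 and then 14 and 8, beside 64.6%, 65.3%, 61.2% and 60.7% of all genes called in either direction. Their median log2 fold change was 0.25 and 0.17 with anti-IgM and 0.24 and 0.28 with LPS, beside medians between -0.02 and -0.01 over all genes. This list too was chosen with earlier results of these data known. Myc, a transcription factor that promotes growth, had the highest fold change of the list in all 4 comparisons, going from 100 to 921 CPM with anti-IgM (log2 fold change 3.20, adjusted p = 1.29e-09) and to 870 CPM with LPS (3.12, adjusted p = 3.57e-09) in WT cells. Tfdp1, an E2F dimer partner, rose by 1.13 and 1.22 on the log2 scale, and E2f6, a repressor E2F, by 0.90 and 0.65. Cks1b, which helps hand p27 to its ubiquitin ligase, rose by 0.67 with anti-IgM, and Cdc25a, a phosphatase that activates CDK2, by 0.74 with LPS. Genes of the RB family fell. Rbl2 (p130), the family member of quiescent cells, went from 145 to 60.4 CPM with anti-IgM (-1.26, adjusted p = 2.09e-08) and to 65.3 CPM with LPS (-1.15, adjusted p = 9.65e-08). Rb1 went from 167 to 124 and 101 CPM (-0.43 and -0.73, adjusted p = 0.000131 and 7.44e-07).

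Between the stimuli, 4 of the 29 were higher and 3 lower with LPS than with anti-IgM in WT cells and 5 and 3 in Ubqln1-/- cells, beside 32.4% and 31.3% of all genes called in either direction. E2f2 went from 124 to 17.7 CPM with anti-IgM in WT cells (-2.81, adjusted p = 2.58e-08) and to 77.9 CPM with LPS (-0.67, adjusted p = 0.0116), and was 2.14 higher with LPS than with anti-IgM on the log2 scale (adjusted p = 1.37e-06). The values in Ubqln1-/- cells were 136, 19.6 and 82.9 CPM. Rbl1 (p107) went from 58.1 to 27.4 CPM with anti-IgM and to 49.5 CPM with LPS, a log2 difference between the stimuli of 0.86 (adjusted p = 1.09e-06). Cdk2, the partner of the E cyclins, fell by 0.79 with anti-IgM and by 0.43 with LPS (adjusted p = 9.18e-07 and 0.000576). Tfdp2 fell by 0.80 and by 1.40, and Rb1 was also lower with LPS than with anti-IgM (-0.30, adjusted p = 0.00771). Fzr1, an activator of the ubiquitin ligase APC/C, was 0.13 higher (adjusted p = 0.033) and Ccnh, the cyclin of the CDK-activating kinase, 0.63 lower with LPS (adjusted p = 0.00308). E2f1 was not called, with log2 fold changes of 0.11 and -0.13 in WT cells, whereas E2f4, an E2F of quiescent cells, rose by 0.51 and 0.49 (adjusted p = 2.28e-06 and 5.39e-06). None of the 29 was called between genotypes in any condition by edgeR, DESeq2 or limma-voom, and the unadjusted p was under 0.05 for 1 gene at rest, 0 with anti-IgM and 1 with LPS.

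**Figure D5:**
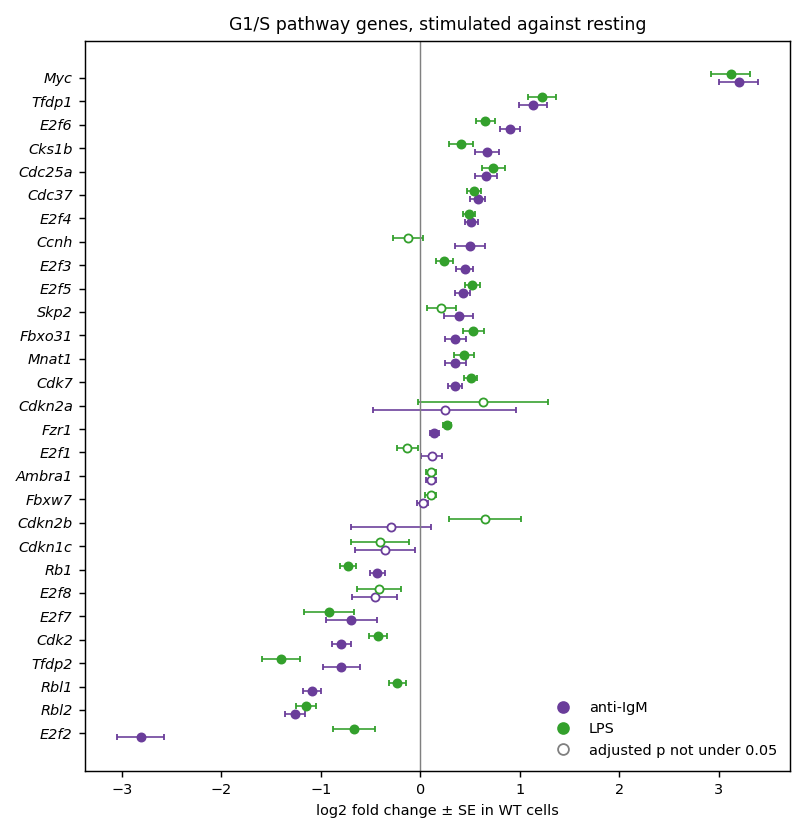
Log2 fold change against resting cells in WT libraries (points) with standard errors (bars) for the 29 tested genes of the G1/S list, ordered by the anti-IgM value, with anti-IgM in purple and LPS in green. Myc is at the top near 3.2 with either stimulus, and E2f2 at the bottom is at -2.81 with anti-IgM and -0.67 with LPS.

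A list of 12 genes of S phase and mitosis was counted in the same way, beside the same shares of all genes. With anti-IgM, 0 were higher and 2 lower in each genotype by edgeR, DESeq2 and limma-voom, and at an unadjusted p under 0.05 the counts were 0 and 3. Aurkb, a mitotic kinase, went from 30.0 to 14.2 CPM (-1.08, adjusted p = 1.65e-05) and Rrm2, a subunit of ribonucleotide reductase, from 21.0 to 13.9 CPM (-0.61, adjusted p = 0.0312) in WT cells. With LPS, 1 was higher and 2 lower in WT cells, where Birc5 was at 10.6 against 7.94 CPM (0.41, adjusted p = 0.045) and Aurkb and Ccnb2 were the lower genes, and 0 and 2 in Ubqln1-/- cells (1 and 2 at an unadjusted p under 0.05). Top2a, the topoisomerase of dividing cells, was higher with LPS than with anti-IgM in WT (0.49, adjusted p = 0.0192) and Ubqln1-/- cells (0.58, adjusted p = 0.00725).

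The pattern of a member over the 18 libraries was set beside that of every other gene tested, by Pearson's r of log2 CPM, which is a description because libraries of a group share their treatment. For Ccnd2 the most alike were Entrez gene 100861633, which has no symbol in the table used (r = 0.996), then Nfkbiz (0.990) and Nfkbia (0.989), which encode IkB proteins, and 67 of the other 14160 genes reached 0.95. The gene without a symbol was counted at 64 to 146 reads at rest and at 1200 to 3288 reads with LPS, and reads that it might share with Ccnd2 were not tested. For Ccnd3 the most alike were Gpsm3 (0.988), Gnb2 (0.987) and Zfp710 (0.986), with 388 genes at 0.95 or more. For Cdkn1b they were Ip6k1 (0.994), Ctdsp2 (0.993) and Nipal3 (0.991), with 478 genes. Among the members themselves, Cdkn1b and Ccne1 had an r of 0.970, Cdkn1b and Cdk6 -0.952, and Ccnd3 and Cdk4 -0.967, whereas Ccnd2 and Cdk4, which both rose, had 0.419, the one being highest with LPS and the other with anti-IgM.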

How the data were processed

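Per the labels and the study's methods, the authors sequenced unstranded TruSeq libraries as single-end reads of 50 bases and aligned them to GRCm38 with GSNAP. The authors deposited, for each library, a raw exonic read count per Entrez gene and an RPKM value made with a larger library total. The counting program and annotation release are not given in the sources used here. Reads were counted at 15368941 to 41072854 per library, and Cdkn2c and Ccnd1, with under 200 reads in each library, had the fewest reads of the members. Intervals cover the spread between libraries. Gene symbols came from RefSeq GRCm38.p6, which named 25035 of 28096 Entrez numbers holding 95.8% to 96.2% of counts, and exon overlaps from GENCODE. The annotated exon bases of GENCODE differ from the counted widths, as 3249 against 1347 bases for Cdk4. Whether the shared bases lie in the counted exons was not tested.

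Counts were fitted in edgeR 4.0.16 (R 4.3.3) with TMM scaling, filterByExpr, 1 term for each of 6 groups over all 18 libraries and the quasi-likelihood test, with Benjamini-Hochberg adjustment over 14161 genes and a call at an adjusted p under 0.05. Standard errors are the log2 fold change divided by the root of F. The common biological coefficient of variation was 10.1%. RPKM was computed from counts, widths and TMM sizes. Shares were tested by exact permutation. The scripts were tested on simulated counts. Alternatives were limma-voom (limma 3.58.1), DESeq2 1.42.0, RLE factors, dropping the expression filter (a total of 1 count was then enough), requiring 10 counts in all libraries, a replicate block, only the groups compared, the study's thresholds, and leaving out each library; for shares, deposited RPKM, counts without width, and pairing.

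The 10 members, the lists of 30 and 12 pathway genes, the marker lists and the motifs were chosen with earlier results of these data known. All members were named. Of the pathway lists, up to 4 called genes a comparison and direction (3 for S and G2/M genes) with the largest change and at least 5 CPM were named, plus Cdk2, Rb1, Rbl1, Rbl2, E2f1 and E2f4. The 3 genes most like Ccnd2, Ccnd3 and Cdkn1b were named by r, with a prior count of 2. Replicate 1 carries no number in its label and was numbered by elimination. In all 9 comparisons each of the 6 libraries deviated most alike with the library of its own number. The r of same-numbered libraries was 0.205 to 0.516 in 8 comparisons. For Ubqln1-/- against WT at rest it was 0.083 to 0.298, where libraries of other numbers gave -0.225 to 0.039. With this lower r, the pairing by number was less clear in that comparison than in the other 8. The replicate block used the numbers in all 18 libraries. The study describes independent experiments. Replicates differed by more than counting noise (chi-square per degree of freedom 8.03 to 33.3).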

Additional observations from a re-analysis of the deposited data

Results flagged for a closer look

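These patterns stood out because every Ubqln1-/- library lay on one side of the WT mean in one condition and on the other side in another. The share of all genes tested that meet this rule was not counted. The libraries of the genotypes themselves overlapped in these conditions, except for Ccnd3 with anti-IgM, and within replicate number 3 at rest Ccnd3 was higher in Ubqln1-/- cells, at 27.3 against 26.8 RPKM. Ccnd3 in Ubqln1-/- cells was under the WT mean in 3 of 3 resting libraries, with log2 differences of -0.00628, -0.165 and -0.0839, and above it in 3 of 3 anti-IgM libraries, by 0.128, 0.0979 and 0.134. The genotype differences in these conditions were 0.205 apart. The test of that difference was the interaction given in the report, with an unadjusted p of 0.027 and an adjusted p of 1. The interaction used the same libraries that flagged the pattern, so it is no separate test, and the same holds for Ccne1 below. Ccnd3 was also under the WT mean in 3 of 3 LPS libraries of Ubqln1-/- cells, with a difference from anti-IgM of -0.146, which was not tested. Ccne1 was above the WT mean in 3 of 3 resting Ubqln1-/- libraries, by 0.363, 0.152 and 0.129, and under it in 3 of 3 with LPS. The genotype differences were -0.384 apart, with an unadjusted interaction p of 0.0323 and an adjusted p of 1.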

How the results depend on the processing

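At the study's thresholds 532, 516, 255, 247, 355 and 317 of all genes and 0, 0, 1, 1, 1 and 1 members were called in the anti-IgM, LPS and LPS against anti-IgM comparisons (WT, then Ubqln1-/-). Between genotypes at rest, with anti-IgM and with LPS, 1, 1 and 1 of all genes were called at these thresholds, 32, 47 and 51 by DESeq2, 5, 2 and 2 with only the groups compared, and 2 to 11, 2 to 10 and 2 to 37 when 1 library was left out. The LPS interaction gave 0 to 10 genes when 1 library was left out. With the replicate number as a block, 49, 94 and 125 genes were called between genotypes, and no member call changed under that block. Of the 420 member values for stimulation under alternatives that kept all libraries, 419 kept direction and call, and the exception was Cdkn1a between LPS and anti-IgM in Ubqln1-/- cells with limma-voom. Values under the calling threshold between genotypes changed sign for Cdkn1b, with log2 differences at rest of -0.000146 by DESeq2, -0.000272 with RLE factors and -0.00639 without a filter, and with anti-IgM of -0.00335 by DESeq2, -0.00266 with RLE factors and -0.00248 with at least 10 counts. Its anti-IgM interaction was 0.0158 without a filter and 0.00057 with only the groups compared. The causes were not tested.

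Leaving out 1 library changed the sign of no called value. It changed that of these uncalled log2 values, given from lowest to highest. Against resting cells, Ccnd1 ran from -0.169 to 0.156 with anti-IgM in WT and from -0.171 to 0.0603 with LPS in Ubqln1-/- cells. Between LPS and anti-IgM, Ccne2 ran from -0.0378 to 0.148 and Cdk6 from -0.314 to 0.0332 in WT cells, and Ccne2 from -0.0832 to 0.194 and Cdkn2c from -0.146 to 0.0233 in Ubqln1-/- cells. Between genotypes at rest, Ccnd2 ran from -0.0362 to 0.255, Ccne2 from -0.0315 to 0.17, Cdkn1a from -0.179 to 0.107 and Cdkn1b from -0.0355 to 0.0288. With anti-IgM, Ccne2 ran from -0.209 to 0.0571, Cdk4 from -0.106 to 0.00983, Cdkn1a from -0.184 to 0.0639, Cdkn1b from -0.0717 to 0.0881 and Cdkn2c from -0.0251 to 0.241. With LPS, Ccnd1 ran from -0.0625 to 0.164, Ccnd2 from -0.0945 to 0.219, Ccne2 from -0.174 to 0.0382, Cdk4 from -0.144 to 0.0986 and Cdk6 from -0.0244 to 0.323. In the anti-IgM interaction, Ccnd2 ran from -0.00711 to 0.284, Ccne1 from -0.142 to 0.0105, Cdkn1a from -0.176 to 0.113, Cdkn1b from -0.0718 to 0.081 and Cdkn2c from -0.195 to 0.071. In the LPS interaction, Ccnd2 ran from -0.224 to 0.136 and Cdkn2c from -0.0873 to 0.149. The genotype difference of the Ccnd2 share with LPS ran from -0.409 to 1.89 percentage points, the lowest without WT LPS replicate 3. Pairing by number gave the shares an exact sign-flip p of 0.25 for each comparison between conditions, the smallest that 3 pairs allow. Ccnd1 had the fewest reads, 33 to 102 per library.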
